A study of Homo sapiens with 3 samples.

Results

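In RNA from HEK293T cells, a line of human embryonic kidney cells used here in its Lenti-X form (HEK293XT in the labels), 1811 editing clusters rested on a single edited read that carried at least 5 edited C bases. A cluster is a stretch of transcript that FLARE, the authors' cluster caller, found enriched for C-to-U editing. These clusters were chosen by the deposited counts themselves, as those with exactly 1 edited read and at least 5 edited bases. They are called multi-edited clusters here, and they number 589, 655 and 567 in replicates 1, 2 and 3, of 40843 clusters in all. The clusters with 1 edited read and up to 4 edited bases, of which there are 10658, serve as the main comparison and are called lightly edited clusters. All samples belong to 1 group of 3 replicates: wild-type cells in which doxycycline induced a fusion of RBFOX2 with APOBEC1 for 72 h. Transient transfection is given as the treatment in the labels, which elsewhere describe stable lines. No samples that lack the fusion enter the comparisons. The paper calls the replicates biological, and the labels do not describe how the cultures were kept apart.

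RBFOX2 is a splicing regulator that binds RNA at GCAUG, and APOBEC1 is a deaminase that turns C into U. In the STAMP assay the fusion leaves such changes near the places where it sits, and sequencing shows them as C-to-T differences from the genome. APOBEC1 can deaminate several C bases of the same molecule, and changes counted on the same read come from the same RNA molecule. How the changes of the multi-edited clusters arose was not tested, and the files analysed hold neither reads nor edited positions.

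As a share of all clusters, the multi-edited ones made up 4.12%, 4.31% and 4.99% of replicates 1, 2 and 3, with a mean of 4.47% ± 0.455 (SD, n = 3). Among clusters with 1 edited read their share was 14.7%, 13.9% and 15.1%. They held 3.66%, 3.63% and 4.52% of all edited bases counted in clusters. Each of these shares was highest in replicate 3. The median read depth over all clusters was 25.1, 24.7 and 21.1 reads, and thus lowest in replicate 3. Whether the shares follow depth was not tested. The multi-edited clusters lay on 23 chromosomes, and none lay on the mitochondrial chromosome, which also held no lightly edited cluster.

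The number of clusters fell steadily with the number of edits on the read and then stopped. Per replicate there were 249 ± 19.5 clusters (SD, n = 3) with 5 edited bases, 152 ± 13.4 with 6, 96 ± 8 with 7 and 56.7 ± 1.53 with 8. Those with 9 numbered 42, 43 and 25, and those with 10 numbered 20, 12 and 10 in replicates 1, 2 and 3. No cluster with 1 edited read had more than 10 edited bases. The same limit held across all 40843 clusters, where the edited bases never exceeded 10 for each edited read. It was reached in 51 clusters, of which 42 had 1 edited read, 8 had 2 edited reads with 20 edited bases and 1 had 3 edited reads with 30. Where this limit arises was not tested, so 10 may be a bound on what could be counted per read, and reads with more edits cannot be told from these counts. Just outside the threshold of the rule, the 1213 clusters with 4 edited bases had a median depth of 17.3 reads and 10 C bases. Just inside it, the 746 clusters with 5 had 18.7 reads and 12 C bases, so the rule divides a continuous series.

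**Figure D1:**
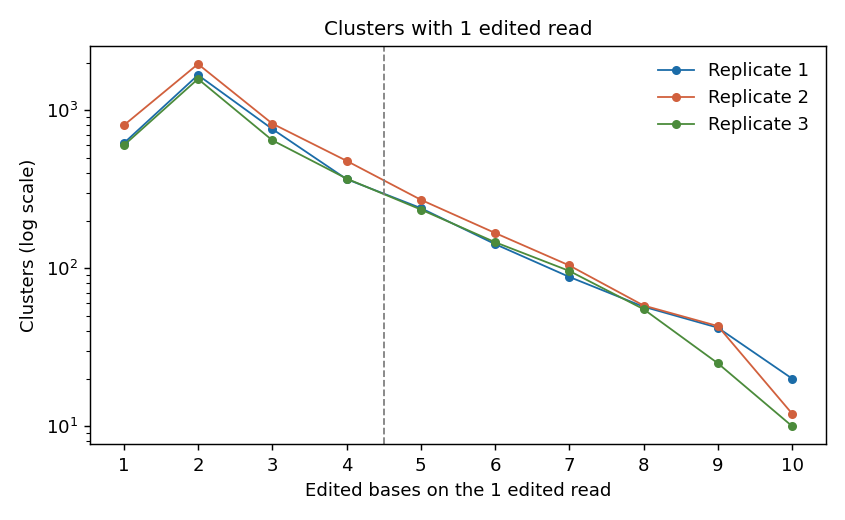
Number of clusters with 1 edited read (vertical axis, log scale) against the edited bases on that read (horizontal axis), 1 line per replicate; the dashed line marks the threshold of the rule. Counts peak at 2 edited bases and end at 10 in each replicate, where 20, 12 and 10 clusters remain.

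Multi-edited clusters were about 2 times as long as the lightly edited ones. Their mean length was 74.5, 72.5 and 73.0 bases in replicates 1, 2 and 3, with a median of 75 in each, against a mean of 38.5, 38.4 and 38.6 bases and a median of 30. The difference in mean length was 34.8 ± 0.943 bases (SD, n = 3). A length of 30 bases, that of a window of the caller, was found in 1.87% ± 0.411 of multi-edited and in 50.9% ± 0.084 of lightly edited clusters. The most common multi-edited lengths were 60, 75 and 90 bases, with 23.4% ± 1.33, 23.6% ± 1.66 and 20.5% ± 1.59. Lengths over 90 bases occurred in 237 of 1811 multi-edited clusters and in 21 of 10658 others. Edited bases and length are tied through the rule and the merging of neighbouring windows, so these values are a description with no test. The longest multi-edited clusters had 120, 135 and 135 bases.

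**Figure D2:**
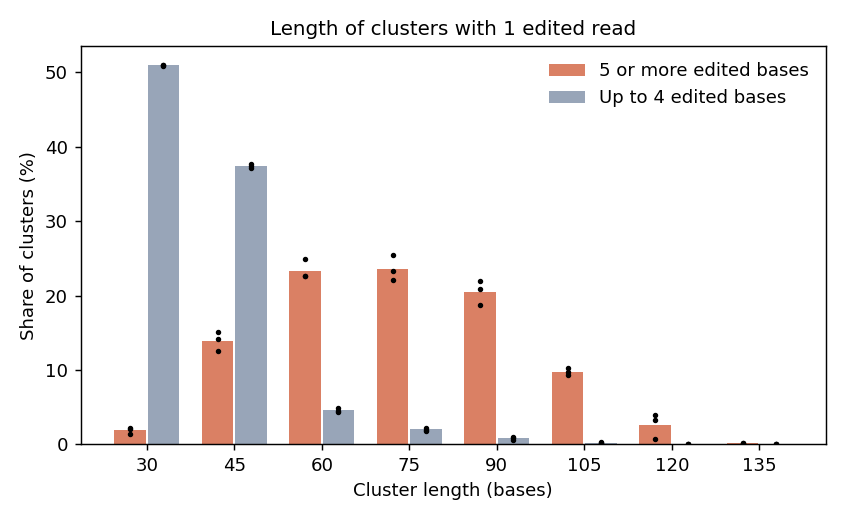
Share of clusters (vertical axis, percent of the clusters of the kind) at each common length (horizontal axis, bases); bars are means of 3 replicates and black points the replicates. Lightly edited clusters sit at 30 and 45 bases, and multi-edited clusters are spread from 45 to 105 bases with means of 23.4% and 23.6% at 60 and 75 bases.

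The longer clusters also held more C bases, both in number and per length. The median was 14 C bases in every replicate, against 6 in lightly edited clusters, and the means were 14.8, 14.7 and 14.9 against 6.68, 6.80 and 6.93. Per 100 bases the median was 19.2, 20 and 20 C bases against 16.7 in every replicate. A cluster with fewer than 5 C bases cannot enter the multi-edited set, and 30.8%, 30.5% and 29.7% of lightly edited clusters were of that kind. With lightly edited clusters weighted to the same length classes, the difference in C bases was 3.06 ± 0.123 (SD, n = 3) in place of 7.98 ± 0.0915. C density stopped rising early: the median was 6.67 C bases per 100 bases with 1 edited base, 18.5 with 2, 19.4 with 3 and 20 with 5 (means of 3 replicates). Density thus separates clusters with 1 edit from the remainder more than it separates the multi-edited ones from those with 2 to 4 edits.

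Measured against the C bases of the cluster, the edited read carried changes at a median of 45.5%, 44.4% and 42.9% of C bases in replicates 1, 2 and 3. The median was 50% with 1 edited base, where clusters held a median of 2 C bases, and rose from 33.3% with 2 edited bases to 40% with 4, 45.1% with 6 and 51.0% with 10 (means of 3 replicates). At least 50% of the C bases were edited in 724 of 1811 multi-edited clusters. Such clusters were also frequent among the lightly edited ones. The upper quartile of the edited share was 50% there in each replicate, against 55.6%, 55.6% and 54.5% in multi-edited clusters. The edit fraction, the ratio of edited to read-covered C bases, had a median of 2.49%, 2.42% and 2.55%, and in lightly edited clusters 2.74%, 2.63% and 2.86%. The covered C bases behind these fractions numbered a median of 243, 252 and 241, against 86, 90 and 83.

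**Figure D3:**
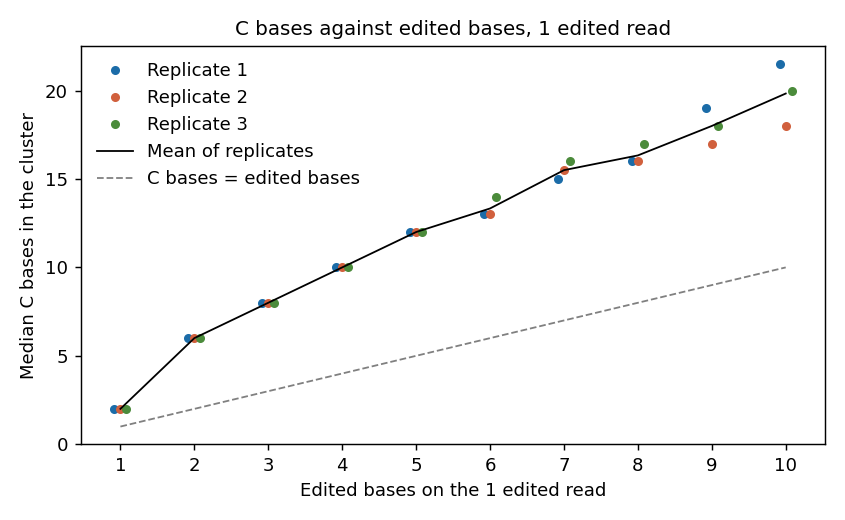
Median C bases of a cluster (vertical axis) against the edited bases on its 1 edited read (horizontal axis), with points for 3 replicates, a black line for their mean and a dashed line where both numbers are equal. The medians rise from 2 C bases at 1 edited base to 12 at 5 and 19.8 at 10, staying above the dashed line.

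The edited C bases came close to the full number in few clusters. In only 5 of the 1811 did the edited bases equal the C bases. They were 7 of 7 in an exon of MTF2, a Polycomb-associated protein, in replicate 1 (chromosome 1 from 93602753 to 93602857), and 7 of 7 in an exon of SHOC2, a scaffold of RAS signalling, in replicate 2 (chromosome 10 from 112773079 to 112773153). IP6K2, an inositol phosphate kinase, had 6 of 6 in replicate 2 (chromosome 3 from 48728846 to 48728905). ZC3H15, a zinc finger protein, had 5 of 5 in replicate 3 (chromosome 2 from 187367284 to 187367314), and a cluster in 2 overlapping genes with clone-based names, CTD-2314B22.2 and CTD-2314B22.3, had 7 of 7 (chromosome 14 from 19856754 to 19856813). These windows held 12.4, 9.29, 31.2, 48.2 and 7.43 reads per C base in the order given, of which 1 read was edited. In TRA2A, a splicing regulator related to SR proteins, 7 of 8 C bases were edited on 1 of 126 reads in replicate 1. In a lightly edited cluster of CBX3 in replicate 3, 4 edited bases were counted over 3 C bases with 1 edited read, which is more edits than C bases. No multi-edited cluster showed such an excess.

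Read depth was somewhat higher than in lightly edited clusters. The median was 18.0, 18.5 and 16.2 reads against 14.0, 14.1 and 12.1, a difference of 4.17 ± 0.255 reads (SD, n = 3), and 88.3% of multi-edited clusters had fewer than 50 reads. The means pointed the other way, 7.60 reads lower than in lightly edited clusters (mean of 3 replicates), and the deepest lightly edited clusters reached 8010, 8001 and 5322 reads. Depth also depends on edits through the filter, which asks for more edits where more C bases are covered, so no test was made. The median depth rose from 6.85 reads with 1 edited base to 14.0 with 2 and 19.2 with 3 and was 18.6 with 5 and 19.9 with 10 (means of 3 replicates).

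Depth over the whole cluster and coverage of its C bases came apart at the deepest sites. In RPL12, a ribosomal protein gene, a cluster of replicate 1 on chromosome 9 from 130212430 to 130212489 had a mean depth of 3572 reads but 9.75 reads per C base, and 7 of 20 C bases edited. The cluster in GNB2L1, the gene of the ribosomal scaffold RACK1, had 3296 reads and 51.5 per C base in replicate 1. In replicate 2, an intronic cluster shared by NUDT3, RPS10 and the read-through gene RPS10-NUDT3 had 2877 reads and 9.25 per C base. ATPIF1, which inhibits the mitochondrial ATP synthase, held 2 such clusters in the same exon, with 750 reads and 12.1 per C base in replicate 1 and 613 reads and 12.05 per C base in replicate 3. Depth above 2 times the coverage per C base was found in 58 multi-edited clusters, or 2.72%, 3.66% and 3.17%, against 7.15%, 7.61% and 4.99% of lightly edited clusters. What those additional reads are was not tested. HDAC2 and SNX5, a histone deacetylase and a sorting nexin, were deep by both measures in replicate 3, with mean depths of 161 and 153 reads and 5 of 6 C bases edited over 30 bases in each.

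Of the 42 clusters at the limit of 10 edited bases, 15 are named here, the 5 with the lowest depth in each replicate. Of the 5 with the lowest depth in replicate 1, the cluster in COQ7, an enzyme of coenzyme Q synthesis, had 10 of 21 C bases edited on 1 of 15 reads (chromosome 16 from 19091054 to 19091143). CAP2, which binds actin, had 10 of 25 on 1 of 18 reads, and TSPAN12, a membrane protein of the tetraspanin family, had 10 of 20 on 1 of 19 reads. ENOSF1 had 10 of 24 on 1 of 27 reads, and TMEM19, overlapped by RP11-293I14.2, had 10 of 24 on 1 of 37 reads. In replicate 2, SOCS4, a suppressor of cytokine signalling, and SYBU, an adaptor of kinesin transport, each had 10 of 14 C bases edited, on 1 of 14 and 1 of 20 reads. HBP1 and TEAD1, both transcription factors, had 10 of 21 and 10 of 20, and SLC11A2, an iron transporter, had 10 of 23. In replicate 3 the same count was found in PCNXL2 with 21 C bases, in TXNDC16 with 29 and in NBPF10 with 19. MAGEA3, a cancer-testis antigen, and PRPF38A, a splicing factor, had 10 of 14 each there. NBPF10 and MAGEA3 belong to families of near-identical genes, so the assignment of their reads is uncertain. Of these 15 clusters, 5 were overlapped by a cluster of another replicate: those in TSPAN12, ENOSF1, HBP1, MAGEA3 and PRPF38A.

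The multi-edited clusters fell in 1627 genes by name, and most of these held few of them. Overlapping genes gave 103 of the clusters several names, and each name was counted as a gene, also in the overlaps below. A gene had 1 such cluster in 1359 cases, 268 genes had at least 2, and the largest number was 4. Of the names, 1561 (95.9%) matched a symbol or older symbol of RefSeq, and 1496 of those are protein-coding there, 19 long noncoding, 13 pseudogenes and 14 transcribed pseudogenes. Members occurred in 1 replicate in 1432 genes, in 2 replicates in 192 and in 3 replicates in 3. Between replicates 1 and 2, 72 genes were shared, which is 12.3% and 10.9% of the genes of each. Replicates 1 and 3 shared 62 genes (10.6% and 10.7%), and replicates 2 and 3 shared 67 (10.1% and 11.6%). No matching share for genes of lightly edited or of all clusters is given, so these overlaps cannot be called low or high. Of the 1627 genes, 1052 had a cluster of some kind in every replicate. In 123 genes the multi-edited clusters were the only clusters of any kind in the series. Matching counts for genes of lightly edited or of all clusters are not given here either, so these too cannot be called low or high.

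MEF2A, NUP155 and PRKAB2 held a multi-edited cluster in every replicate. In MEF2A, a transcription factor known from muscle, 9 of 21 and 9 of 23 C bases were edited in the same exon in replicates 1 and 3, and 5 of 11 in another exon in replicate 2. The clusters of replicates 1 and 3 overlapped, on chromosome 15 from 100253256 to 100253345 and from 100253271 to 100253360. NUP155, a scaffold protein of the nuclear pore, had 9 of 15, 5 of 8 and 6 of 19 C bases edited in replicates 1, 2 and 3, in 3 different exons. PRKAB2, a regulatory subunit of the energy sensor AMPK, had 5 of 7, 7 of 15 and 5 of 10 in the same annotated exon but at separate places. These genes also had 18, 24 and 20 clusters of all kinds over the replicates, so each multi-edited cluster was 1 of several in its gene.

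The genes with 4 multi-edited clusters were EXO1, OGT and UBE4A, in 2 replicates each. EXO1, an exonuclease of DNA repair, had 3 in replicate 1, with 8 of 16, 7 of 11 and 6 of 11 C bases edited, and 1 in replicate 2 with 5 of 6. Coverage in EXO1 rose along these clusters of replicate 1 from 27.7 to 100 reads per C base. OGT, which attaches GlcNAc to proteins, had 2 in replicate 2 (5 of 9 and 5 of 7) and 2 in replicate 3 (5 of 9 and 6 of 11), of which 3 lay in the same exon between 70793711 and 70794025 on chromosome X. UBE4A, a ubiquitin ligase, had 3 in replicate 1 and 1 in replicate 2, the latter with 10 of 25 C bases edited on 1 of 45 reads. Many further genes had 3 each in 2 replicates, and those named here come first only by alphabet. They are ABI2, a regulator of the actin cytoskeleton, ANKHD1, an ankyrin repeat protein, and BRPF3, a chromatin reader. The ANKHD1 clusters also carry the name of the read-through gene ANKHD1-EIF4EBP3 and were counted under both names.

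Clusters were also counted by gene family, grouped by name. Cytosolic ribosomal protein genes held 4 multi-edited clusters, 0.223% ± 0.102 (SD, n = 3), against 0.632% ± 0.327 of lightly edited and 0.880% ± 0.0193 of all clusters. HSP genes, which encode chaperones, held 1, a mean share of 0.0588% against 0.293% of lightly edited and 0.387% of all clusters. Histone genes held 1 (0.0509% against 0.145% and 0.277%). Names of the tubulin and actin type, which here include ACTN genes, also held 1 (0.0509% against 0.106% and 0.173%). That cluster lay in ACTN1, which encodes an actin-binding protein and not an actin. HNRNP genes held 7 (0.387% ± 0.261 against 0.380% ± 0.170 of lightly edited and 0.719% of all clusters) and SRSF splicing factor genes 3 (0.168% against 0.266% and 0.418%). Zinc finger genes of the ZNF series were the largest family, with 59 clusters. Their share was 3.06%, 3.51% and 3.17% in replicates 1, 2 and 3, against 2.17%, 2.76% and 2.54% of lightly edited clusters and 1.69%, 1.98% and 1.75% of all clusters. It was above that of lightly edited clusters in each replicate. RBM genes, which encode RNA-binding proteins, held 15 (0.812% ± 0.368 against 0.519% ± 0.0675 of lightly edited and 0.514% of all clusters). Names starting with EIF or EEF held 15 (0.813% ± 0.400 against 0.668% ± 0.144 and 1.09%). Most of these are translation factors, but the kinases EIF2AK1 and EIF2AK3 and the pseudogene EIF2S2P4 are counted among them. SLC transporters held 30 (1.66% ± 0.623 against 1.76% ± 0.434 and 1.43%). LINC and antisense genes held 14 (0.778% against 0.571% of lightly edited and 0.582% of all clusters), and clone-based names 70 (3.86% ± 0.262 against 4.30% ± 0.301 and 4.56%). These are counts without a test. The ranges of both kinds over the replicates did not overlap for ZNF, HSP, clone-based and LINC or antisense names, and overlapped for the other groups named here. For HSP this rests on 1 multi-edited cluster, too few to describe the family. The clone-based group counts clusters with at least 1 such name. For clusters with clone-based names only, the shares were 0.679%, 1.83% and 1.23% against 1.58%, 1.08% and 1.51% of lightly edited clusters, and those ranges overlapped.

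Nearly all multi-edited clusters were exonic. Introns alone held 31 of 1811, at 1.36%, 1.98% and 1.76% of replicates 1, 2 and 3, against 3.58%, 3.52% and 2.01% of lightly edited clusters. The difference was -2.22, -1.54 and -0.244 percentage points in replicates 1, 2 and 3, with a mean of -1.33 (exact sign-flip permutation test over 3 replicates, two-sided, p = 0.25, the smallest value that 3 replicates allow). With clusters left out whose mean depth exceeded 2 times the coverage per C base, the mean difference was -0.363 percentage points. In replicate 3 its sign then turned, to 0.0535. The intronic clusters include the highest edit counts as well. LDB1, a LIM-domain-binding cofactor, had 7 of 24 C bases edited in replicate 1 and 10 of 38 in replicate 3, at separate places of the same intron on chromosome 10. AKIRIN2, a nuclear protein, had 8 of 15 in replicate 2 and 6 of 14 in replicate 3 in the same intron. Intronic clusters in ANXA5, SARS, TARDBP and HMGN3 had a mean depth of 96.8 to 153 reads with 5.75 to 7.14 reads per C base. On the minus strand, the exon numbered first in the deposited annotation, which is the one with the lowest coordinates, held 55.5%, 55.4% and 54.3% of exonic multi-edited clusters, against 61.1%, 55.2% and 58.9% of lightly edited clusters and 70.4%, 66.0% and 66.4% of clusters with several edited reads and at least 5 edited bases.

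Recurrence asks whether another replicate had a cluster at the same place, and other replicates were not used to choose the clusters. A cluster was counted when any cluster of another replicate shared at least 1 base with it, strand included. The count was 143, 141 and 159 for the multi-edited clusters of replicates 1, 2 and 3, or 24.3%, 21.5% and 28.0%, with Wilson 95% intervals from 21.0% to 27.9%, 18.6% to 24.8% and 24.5% to 31.9%, which cover counting error only. Of all clusters, 31.3%, 30.3% and 35.6% recurred in this way. Lightly edited clusters recurred at 15.6%, 16.6% and 19.5%. The multi-edited clusters thus lay between the lightly edited ones and the whole, and above the lightly edited ones by 8.65, 4.90 and 8.53 percentage points (exact sign-flip permutation test over 3 replicates, two-sided, p = 0.25, the smallest possible). Overlaps were counted from both sides, here and for genes below, so the 3 differences are not independent of each other. Clusters with several edited reads and at least 5 edited bases recurred at 56.9%, 55.0% and 62.1%, at a median depth of 60.5, 57.5 and 52.6 reads.

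Length and depth moved with recurrence. Weighted to the depth classes of the multi-edited clusters, lightly edited clusters recurred at 18.7% against 24.6% (means of 3 replicates), a difference of 5.96 ± 2.20 percentage points. Weighted to length and depth together, which left 1677 of the 1811 comparable, the values were 23.0% and 23.4%, and the difference of 0.399 ± 5.24 was within the spread between replicates, at 6.32, -1.48 and -3.65. With the middle base of each cluster taken in place of its full length, 15.4%, 15.9% and 18.5% recurred, against 13.0%, 13.9% and 16.6%. The weighting rests on few lightly edited clusters in the longest class, with 21 over 90 bases against 237 multi-edited ones. It therefore cannot tell whether recurrence differs beyond length and depth. When 1 replicate was left out, so that 1 partner remained, the difference was 5.61 without replicate 1, 4.39 without replicate 2 and 3.21 without replicate 3.

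**Figure D4:**
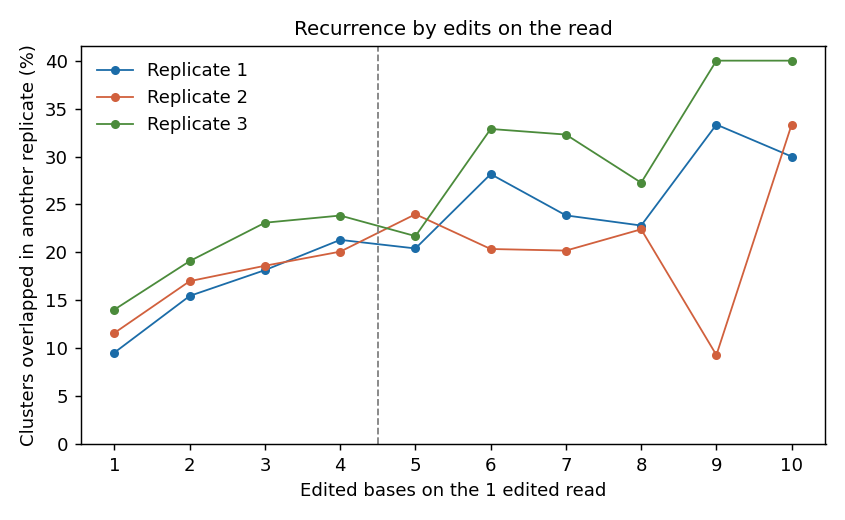
Share of clusters with 1 edited read that a cluster of another replicate overlaps (vertical axis, percent) against the edited bases on the read (horizontal axis), 1 line per replicate; the dashed line marks the threshold of the rule. The means rise from 11.7% at 1 edited base to 22.0% at 5; from 6 to 9 the replicates spread, and at 9 they read 33.3%, 9.30% and 40%.

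By depth, multi-edited clusters under 10 reads recurred at 15.98% ± 0.836 (SD, n = 3) against 11.5% ± 2.95 of lightly edited ones, and those with 10 to 20 reads at 26.8% ± 9.47 against 17.1% ± 3.38. At 50 reads and over the shares were 30.7% ± 7.04 and 23.1% ± 4.16, over 70.3 ± 12.7 multi-edited clusters per replicate. Between 30 and 40 reads the order turned, with 22.8% ± 4.45 against 24.96% ± 3.11. Single classes hold few clusters, and the order of both kinds was not the same in every class and replicate.

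**Figure D5:**
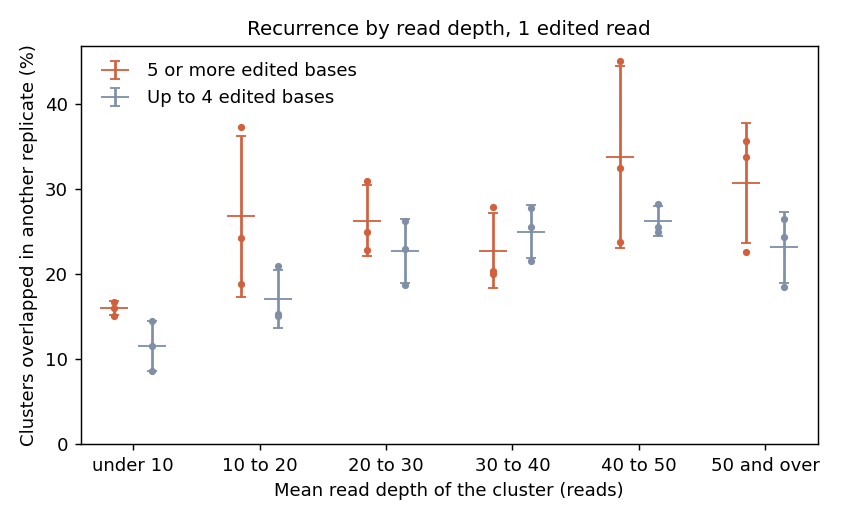
Share of clusters overlapped in another replicate (vertical axis, percent) by mean read depth of the cluster (horizontal axis, classes of reads) for multi-edited and lightly edited clusters; dashes and error bars are mean and SD of 3 replicates and points the replicates. Multi-edited clusters have the higher mean in 5 of 6 classes, with overlapping replicates in most, and the lower mean from 30 to 40 reads.

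Of the 443 recurrent multi-edited clusters, 304 (68.6%) met a cluster with several edited reads, and for lightly edited clusters the share was 67.9%. Clusters with several edited reads are also the majority of the series, where 12469 of 40843 clusters had 1 edited read. The shares are thus no trait of the multi-edited clusters. Of the 443, 156 met a cluster with 1 edited read, and 32 met a second multi-edited cluster. Both other replicates had a cluster at 62 of the 1811. Merged over replicates, the multi-edited clusters formed 1795 loci, of which 16 held multi-edited clusters of 2 replicates and none of 3.

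At these 16 loci, both replicates had 1 edited read with at least 5 edited bases. The highest counts were in an intron of RP11-549K20.1, with 10 of 16 C bases in replicate 2 and 5 of 9 in replicate 3 (chromosome 5 from 25190011 to 25190145 and from 25190026 to 25190085), and in MEF2A as given above. NUS1, needed for dolichol synthesis, had 8 of 11 and 7 of 12 C bases edited in replicates 2 and 3 on 1 of 9 reads each (chromosome 6 from 118029844 to 118029918 and from 118029814 to 118029918). ARMCX3, a mitochondrial outer membrane protein, had 6 of 12 and 8 of 19 in replicates 2 and 3. ALG8, an enzyme of protein glycosylation, was the deepest, with 5 and 7 of the same 10 C bases at 65.5 and 60.3 reads per C base in replicates 2 and 3 (chromosome 11 from 77815433 to 77815477). The microtubule-binding gene CLIP1 had 5 of 10 and 7 of 14, and the transcription factor ZNF281 had 7 of 21 and 5 of 20, both in replicates 2 and 3. UTP6, which acts in ribosome assembly, had 7 of 16 and 7 of 11 in replicates 1 and 3 in clusters that overlap at their ends only. MTMR2 and MRPL42, a lipid phosphatase and a mitochondrial ribosomal protein, had clusters of identical position in replicates 1 and 2, with 5 and 5 of 10 and with 6 and 5 of 9 C bases. The other loci were in RLF, POGZ, CCNY, CRK, GNA11 and TBPL1. Coverage at the 16 loci ran from 5.90 to 65.5 reads per C base. Whether the same C bases were edited in both replicates was not analysed here.

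At the level of genes, 68.8%, 66.0% and 72.8% of multi-edited clusters lay in a gene that had some cluster in both other replicates, against 62.4%, 61.7% and 70.8% of lightly edited clusters. The share over all clusters is not given here, so these values compare only clusters with 1 edited read. The multi-edited share was higher in each replicate, by 4.21 percentage points on average (exact sign-flip permutation test, two-sided, p = 0.25, the smallest possible). Weighted to the depth classes the difference was 1.19 ± 2.01 percentage points, within the spread between replicates. Weighted to length and depth together, it was -1.62 ± 5.71 percentage points. It was 2.36 percentage points without replicate 1.

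A neighbouring cluster could hold the same read. Within 200 bases on either side, a cluster with any number of edited reads was found for 22.4%, 21.1% and 19.2% of multi-edited clusters, against 23.5%, 21.7% and 20.3% of lightly edited ones. A further cluster with 1 edited read lay within that distance on the same strand for 8.15%, 7.18% and 7.23% of them, against 8.56%, 8.92% and 8.09% of lightly edited clusters, a mean difference of -1.01 percentage points (exact sign-flip permutation test, two-sided, p = 0.25, the smallest possible). It was -0.636 percentage points without replicate 2. Within 1000 bases the sign turned, to 0.409 percentage points. Of 128 neighbouring pairs with at least 1 multi-edited cluster, 11 were pairs of multi-edited clusters. The edited bases of both clusters together stayed at or under 10 in 112 pairs and exceeded 10, the highest count on any edited read, in 16, up to 17. Whether the clusters of a pair rest on the same read was not tested.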

How the data were processed

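RNA of 3 replicates was sequenced, and the authors called C-to-U positions with SAILOR, which removes common SNPs. They ran FLARE with windows of 30 bases, background rates that depend on region and depth, a cutoff of 0.1 on adjusted p-values and merging of windows up to 15 bases apart, separately for each replicate. The submitters' processing notes name STAR and hg19 without a version of the aligner. The deposited counts (C bases, their coverage and edits, reads and edited reads) are whole numbers per cluster, not scaled to library size. The authors' edit fraction is edited over covered C bases, their mean read depth is a coverage signal, and their score, which reaches up to 1, served only as a filter. Only clusters past the threshold were analysed, so library depth is unknown here, and clusters with few edits at high depth are missing by construction.

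Clusters were split by the rule with pandas 2.3.3 and NumPy 2.4.6 under Python 3.11.15; figures used matplotlib 3.10.9 and intervals SciPy 1.17.1. Coverage per C base is covered C bases over C bases. The deposited start was taken as the base before the first base of the cluster, and positions are those of hg19. Values are per replicate, with mean and SD. Differences were compared over replicates with an exact sign-flip permutation test of 4 quantities, which cannot pass a threshold of 0.05 with 3 replicates, so adjusted values are 0.25 too. Weighted values give lightly edited clusters the class shares of multi-edited ones, with classes of depth (limits of 10, 20, 30, 40 and 50 reads) and of length (30, 45, 60, 75 and 90 bases).

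The members, gene groups and tests were chosen with earlier results of these data known. Clusters named are, per replicate, the 5 with most edited bases (lowest depth first), the 3 deepest, the 2 longest and the 2 with the largest edited share of C bases, then loci shared by replicates and the 10 genes with members in most replicates. Ties between genes were broken by the number of members and then by name. Of the longest clusters, the text gives lengths only. The intronic clusters, CBX3 and ZNF counts were singled out after their values were seen. The searches for overlaps and neighbours gave the answers of a brute-force search for 100% of 300 simulated clusters. A genome of the build was not used here, so no cluster sequence is shown and motifs were not analysed here.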

Additional observations from a re-analysis of the deposited data

How the results depend on the processing

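Values are differences, multi-edited minus lightly edited clusters, as means of 3 replicates. With at least 4 edited bases as the threshold, the share of clusters chosen was 7.46%, and the differences were 4.43 reads of depth, 29.2 bases of length and 6.92 C bases. With at least 6, these were 2.63%, 3.22, 39.8 and 8.91, and the neighbour difference was -1.84 percentage points. With at least 8, the share was 0.790%, length 46.5, C bases 10.5, neighbours -3.58, and gene recurrence turned to -0.155 percentage points. A minimum score of 0.99 gave 7.20%, depth 5.92, length 30.5, C bases 6.96, recurrence 4.71 and neighbours -0.0752. A mean depth of at least 10 reads gave depth 2.68, length 33.3, C bases 7.54, gene recurrence 1.76 and neighbours -1.79. Clusters of at most 45 bases gave 1.04%, depth 26.4, length 6.83, C bases 4.20, introns -2.99, gene recurrence 14.1 and neighbours -2.16. Compared with clusters of at least 2 edited bases, the values were depth 2.20, length 33.3, C bases 6.99 and introns -0.324.

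Means in place of medians turned the depth difference to -7.60 reads, and the median length differed by 45 bases. C bases per 100 bases differed by 3.17. Recurrence differed by 4.34 percentage points with overlap of 50% of both clusters, 1.45 in both other replicates and 4.74 weighted to length. A cluster of the gene in any other replicate gave 1.69. Neighbours within 1000 bases gave 0.409, the opposite sign. The cause of these reversals was not tested.

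Chosen after seeing the data were recurrence by the middle base (2.11), with partners of at least 2 edited reads (5.17), weighted to coverage per C base (5.13) and to length and depth (0.399). So were gene recurrence weighted to depth (1.19) and to coverage per C base (0.400), coverage per C base in place of depth (4.65) and C bases weighted to length (3.06). The others were introns weighted to depth (-1.56), introns without clusters whose coverage per C base was under 50% of the mean depth (-0.363), and neighbours with any number of edited reads (-0.954). Leaving out 1 replicate gave recurrence differences from 3.21 to 5.61, with 1 partner replicate left. Outside those leaving out a replicate, 49 alternatives moved a value by more than the spread between replicates, 3 turned its direction, and 40 did neither. The intron share over exonic clusters alone gives no value. With 3 replicates no exact test could pass the threshold. Each test already compared both kinds of cluster within a replicate, and the design has 1 group, so no fit with a replicate block was added.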
